A study of Homo sapiens with 8 samples.

Results

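The ABCC subfamily of ATP-binding cassette (ABC) transporters was examined in MIA PaCa-2 cells that had been sorted by their permeability to lactic acid. Its genes ABCC1, ABCC2, ABCC3 and ABCC10, which encode the multidrug resistance proteins MRP1, MRP2, MRP3 and MRP7, were taken by gene symbol from the authors' deposited table, and all 4 were among its 3666 genes. The table lists only genes that the authors found to differ between the sorted fractions, with a highest deposited adjusted p of 0.04999. A difference in each of these 4 genes was therefore a condition of being listed. The other 8 genes of the subfamily searched for (ABCC4, ABCC5, ABCC6, CFTR, ABCC8, ABCC9, ABCC11 and ABCC12) were not analysed here.

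MIA PaCa-2 is an established human pancreatic ductal adenocarcinoma line, and every library came from the same unmodified (WT) line grown in RPMI medium with serum and pyruvate. Cells were given lactate-containing medium briefly, which was then washed out, and were sorted into a PHLac-low and a PHLac-high fraction, the extremes of a phenotype that the study used as a measure of metabolic rate. The sort was repeated 4 times, so each fraction had 4 libraries, and each repeat gave 1 pair. The labels do not say whether repeats were separate cultures. The p-values of tests paired by repeat therefore measure only the spread of the changes within these repeats. Without the pairing they measure the spread between these libraries. They also give the cell type as adenoma beside the carcinoma tissue, which was not resolved. In bulk RNA of sorted cells, fewer cells that express a gene and less RNA per cell cannot be told apart.

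ABCC proteins use the energy of ATP hydrolysis to pump organic anions out of the cell, many of them as conjugates with glutathione, glucuronate or sulfate, and they can also export anticancer drugs. MRP1 and MRP3 are basolateral in polarised epithelia, whereas MRP2 is apical and is best known for moving conjugated bilirubin into bile. Export of glutathione and its conjugates ties these pumps to glutathione synthesis and to the oxidative stress factor NRF2, whose target genes include several members of the subfamily.

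In the PHLac-high fraction ABCC2 was higher and ABCC1, ABCC3 and ABCC10 were lower. ABCC2 rose by 36.9%, ABCC3 fell by 27.4%, ABCC10 fell by 23.6% and ABCC1 fell by 16.0%, each as the mean of the log2 changes within the 4 repeats. All 4 genes passed the test described below and moved in 1 direction in every repeat. Because ABCC2 went against the other genes, its share of the 4 transcripts was larger in the PHLac-high library of every repeat.

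The genes lie on separate chromosomes of GRCh38, all on the plus strand, with GENCODE release 29 coordinates. ABCC1 (Entrez 4363) spans chr16:15949577-16143074, and its longest coding transcript has 32 exons and 6594 bases. ABCC2 (Entrez 1244) spans chr10:99782640-99852594, with 32 exons and 5806 bases. ABCC3 (Entrez 8714) spans chr17:50634777-50692252, with 31 exons and 5716 bases. ABCC10 (Entrez 89845) spans chr6:43427366-43450430, with 20 exons and 5088 bases. Base composition set ABCC2 apart, since its transcript had a GC content of 44.9%, against 54.9% in ABCC1, 55.8% in ABCC3 and 58.7% in ABCC10. None of the stretches of 50 bases in the 4 transcripts was found in the same orientation in a transcript of another gene. ABCC10 shares 25 of 5039 such stretches, in opposite orientation, with its neighbour DLK2, which is also in the table. Whether the authors' counting used strand is not given in the sources used here.

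Promoter sequences from RefSeq (GRCh38.p14) were matched for 2 of the 4 genes, ABCC2 and ABCC10, and only these are shown. Their part in the changes was not tested. The ABCC2 sequence is the 250 bases before its RefSeq start (chr10:99782390-99782639, plus strand). The ABCC10 sequence is the 151 bases between an upstream GENCODE exon of ABCC10 itself and the RefSeq start at 43427541 (chr6:43427390-43427540, plus strand). It therefore lies within the GENCODE span of the gene. Capitals mark matches to any of the 6 motifs named in the next paragraph.
ABCC2: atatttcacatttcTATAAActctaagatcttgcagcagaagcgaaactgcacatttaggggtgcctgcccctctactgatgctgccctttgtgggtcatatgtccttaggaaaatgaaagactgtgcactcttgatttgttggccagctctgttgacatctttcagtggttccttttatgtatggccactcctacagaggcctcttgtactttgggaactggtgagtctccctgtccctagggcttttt
ABCC10: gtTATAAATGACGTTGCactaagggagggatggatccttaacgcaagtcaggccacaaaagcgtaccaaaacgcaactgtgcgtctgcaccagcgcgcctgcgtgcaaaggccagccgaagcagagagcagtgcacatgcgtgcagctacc

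The motifs were searched on both strands, overlaps allowed, in the 250 bases before each start. They were the antioxidant response element core TGACNNNGC, which NRF2 binds, and the palindrome TTCNNNGAA, which STAT factors bind. The others were the hypoxia element core ACGTG, the GC box GGGCGG of SP1, the CCAAT box and the TATA box, spelled TATAAA here. The ABCC2 window held 1 TATAAA, 236 bases before the start, and no match to the other motifs. The ABCC10 window before position 43427541 held 1 TATAAA directly followed by 1 TGACNNNGC, which begins 143 bases before the start, and ACGTG on both strands of 1 site further upstream, outside the printed stretch. The window before the other RefSeq start of ABCC10, which begins at 43427613, held 3 GGGCGG and none of the other motifs. Among 35116 windows of the same length in the RefSeq table, 10.9% held the antioxidant core, 6.57% the STAT palindrome, 18.5% the hypoxia core, 42.6% the GC box, 32.0% the CCAAT box and 10.7% the TATA box. A match is a run of letters, not a measured binding site. GC content was 45.6% in the ABCC2 window, and 23.2% of all windows were lower, with a median of 58%.

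The values are read counts that the authors divided by 1 size factor per library, called normalised counts here. Whole reads could be recovered from them, and the listed genes held from 8979276 to 23176205 reads per library, with the PHLac-low library of repeat 3 the deepest. Reads per library and ABCC gene ranged from 602 to 6116, which gives a counting error of 1.28% to 4.08% of the value. In a principal component analysis of the table, the first axis (54.7% of the variance) separated the fractions. The table holds only genes selected for a difference between the fractions, so this separation was built in by the selection. It is no evidence about genes outside the table. All PHLac-low libraries scored negative and all PHLac-high libraries positive. Both libraries of repeat 4 were shifted along this axis. Its PHLac-low library scored -6.88, against -25.9 to -24.5 in the other repeats, and its PHLac-high library 33.4, against 14.1 to 18.5. Values without repeat 4 are therefore given for each gene. The epithelial marker KRT19 had 17367 ± 3619 normalised counts in the PHLac-low libraries and 20360 ± 3930 in the PHLac-high ones (SD, n = 4), and SOX9, a ductal transcription factor, 2564 ± 197 and 5669 ± 340. The other 14 ductal and acinar markers were not analysed here.

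Changes were tested over the whole table with limma on log2(normalised count + 1). The model paired libraries by repeat (the replicate block) and p-values had Benjamini-Hochberg adjustment. Changes are given as PHLac-high over PHLac-low. A gene passed at an adjusted p of 0.05. Of the listed genes 99.9% passed, 58.7% as higher and 41.2% as lower, so the 4 of 4 ABCC genes that passed, 1 higher and 3 lower, add nothing to the authors' selection. All listed genes together had a median log2 change of 0.25. When libraries were instead scaled by the upper quartile of the listed genes (upper-quartile scaling below), that median became 0.02. This quartile is taken over selected genes, most of them higher in PHLac-high, and is not that of the whole library. Changes relative to the median are therefore given as well.

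ABCC2 encodes MRP2, the apical pump for glutathione and glucuronate conjugates. Its normalised counts in repeats 1 to 4 were 2749, 1827, 1361 and 3197 in PHLac-low. In PHLac-high they were 3302, 2227, 2218 and 4704. The fractions overlapped widely: PHLac-low in repeats 1 and 4 lay above PHLac-high in repeats 2 and 3, and only within a repeat was PHLac-high always higher. Means were 2283 ± 839 for the PHLac-low and 3113 ± 1177 for the PHLac-high libraries (SD, n = 4). The highest PHLac-low library had 2.35 times the count of the lowest. The coefficient of variation was 36.7% and 37.8% in the PHLac-low and PHLac-high libraries, against at most 12.1% for the other 3 genes. The order of the repeats was the same in both fractions (4, 1, 2, 3), with repeats 2 and 3 nearly equal in PHLac-high.

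**Figure D1:**
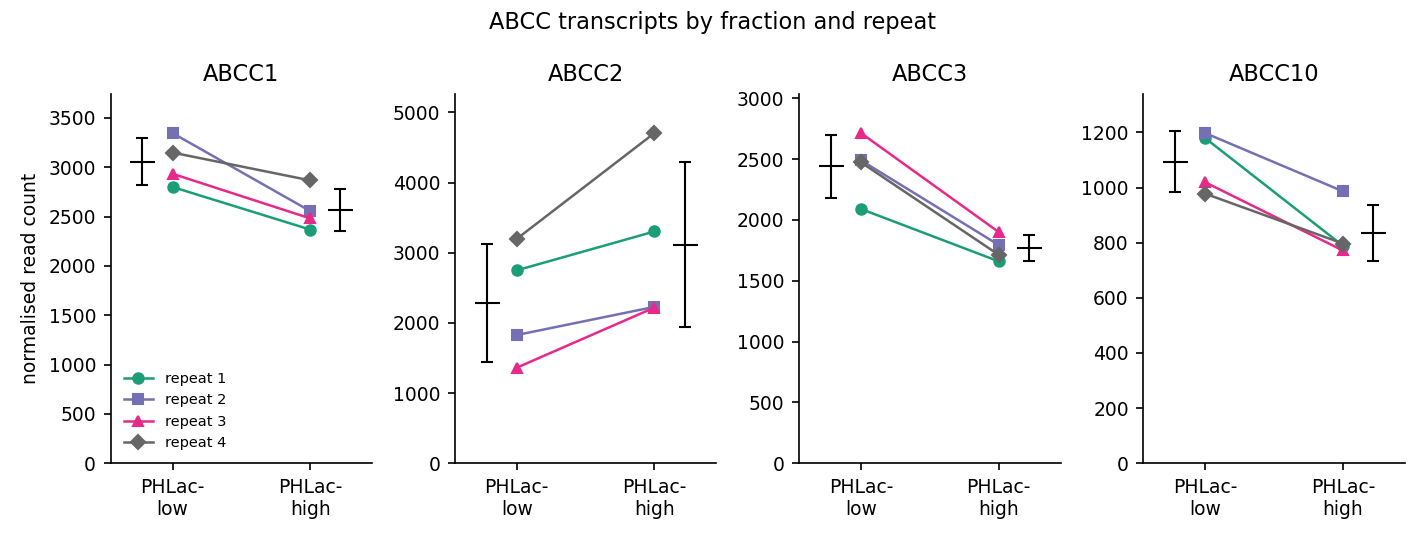
Normalised read counts (vertical axes, each from 0) of ABCC1, ABCC2, ABCC3 and ABCC10 in the PHLac-low and PHLac-high libraries; lines join libraries of a repeat, and black bars give the mean and SD of 4 libraries. ABCC2 climbs in every repeat from very different starting levels (1361 to 3197), while the lines of the other 3 genes all descend.

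Within repeats the log2 change of ABCC2 was 0.26, 0.29, 0.70 and 0.56. The 95% counting intervals of repeats 1 and 2 (0.19 to 0.34 and 0.19 to 0.38) did not reach those of repeats 4 (0.49 to 0.63) and 3 (0.62 to 0.79), so the repeats differed by more than counting error. The mean change was 0.45 ± 0.08 (SE, 95% confidence interval 0.26 to 0.65, limma adjusted p = 0.00171), and 0.21 above the median of the listed genes. The changes within repeats had an SD of 0.21, and limma draws part of its variance from the other listed genes. In limma without a trend of variance with expression, the SE was 0.10 and the interval 0.21 to 0.70 (limma adjusted p = 0.00882). Without repeat 4 the mean change was 0.42 (limma adjusted p = 0.00343). It rests on the pairing: without the replicate block the same change had a limma adjusted p of 0.205, and 31% of listed genes passed. The size also moved with the correction for base composition and length and with scaling. Of the 724 listed genes with a transcript GC content of 41.8% to 47.1%, ABCC2 among them, 75.6% were higher in PHLac-high, and after correction of each library for GC content and length the change of ABCC2 was 0.28 (limma adjusted p = 0.0149). With upper-quartile scaling it was 0.23 (limma adjusted p = 0.0424). Both settings also moved the whole table: the median of the listed genes was 0.04 after the correction and 0.02 with that scaling, against 0.25 in the main test. The part of GC content in the change was not tested further.

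ABCC3 encodes MRP3, a basolateral exporter of glucuronides and bile salts. Repeats 1 to 4 gave 2089, 2489, 2713 and 2472 normalised counts for PHLac-low. The PHLac-high libraries had 1659, 1794, 1900 and 1713. Every PHLac-high library lay below every PHLac-low library, which held for 1 of the 4 ABCC genes and for 13.4% of all listed genes. Those 13.4% are 491 genes, beside 1510 listed genes that passed as lower. No overlap in the opposite direction was seen in 23.3% of listed genes, ABCC2 not among them. The log2 change of ABCC3 was -0.33, -0.47, -0.51 and -0.53 in the 4 repeats, a mean of -0.46 ± 0.06 (SE, interval -0.61 to -0.32, limma adjusted p = 0.000434). It was -0.71 relative to the median of the listed genes and -0.44 without repeat 4 (limma adjusted p = 0.000607). ABCC3 also passed without the block (limma adjusted p = 0.0188).

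ABCC10 encodes MRP7, which can export taxanes and vinca alkaloids. It was the least abundant of the 4, with 1179, 1198, 1019 and 978 normalised counts in PHLac-low. In PHLac-high it had 789, 987, 772 and 797. The PHLac-high library of repeat 2 was just above the PHLac-low library of repeat 4, and apart from that pair the fractions did not overlap. The log2 change was -0.58 in repeat 1 and -0.28, -0.40 and -0.29 in repeats 2 to 4. The mean of -0.39 ± 0.08 (SE, interval -0.57 to -0.21) had a limma adjusted p of 0.00248, and was -0.63 relative to the median of the listed genes. Without repeat 4 it was -0.42 (limma adjusted p = 0.00194). Correction for GC content and length reduced it to -0.22 (limma adjusted p = 0.0480). Among the 724 listed genes with a transcript GC content of 53.5% to 59.9%, which include ABCC1, ABCC3 and ABCC10, 47.8% were higher in PHLac-high. DLK2, the neighbour on the opposite strand, had a log2 change of -0.44 (limma adjusted p = 0.00388).

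ABCC1 encodes MRP1, a broad exporter of glutathione conjugates such as leukotrienes and of oxidised glutathione. Its normalised counts in repeats 1 to 4 were 2799, 3345, 2933 and 3148 in PHLac-low. They were 2368, 2556, 2481 and 2866 in PHLac-high. The fractions touched only where the PHLac-high library of repeat 4 exceeded the PHLac-low library of repeat 1. The log2 changes were -0.24, -0.39, -0.24 and -0.14, with a mean of -0.25 ± 0.06 (SE, interval -0.39 to -0.11, limma adjusted p = 0.00529). This was the smallest change of the 4 genes, and only 7.68% of the genes lower in PHLac-high had a smaller one. It was -0.50 relative to the median of the listed genes and -0.29 without repeat 4 (limma adjusted p = 0.00291). Without the replicate block ABCC1 did not pass (limma adjusted p = 0.0796). After GC and length correction the change was again -0.25, but the median of the listed genes was then 0.04, against 0.25 in the main test. Relative to that median the change was therefore smaller than in the main test.

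**Figure D2:**
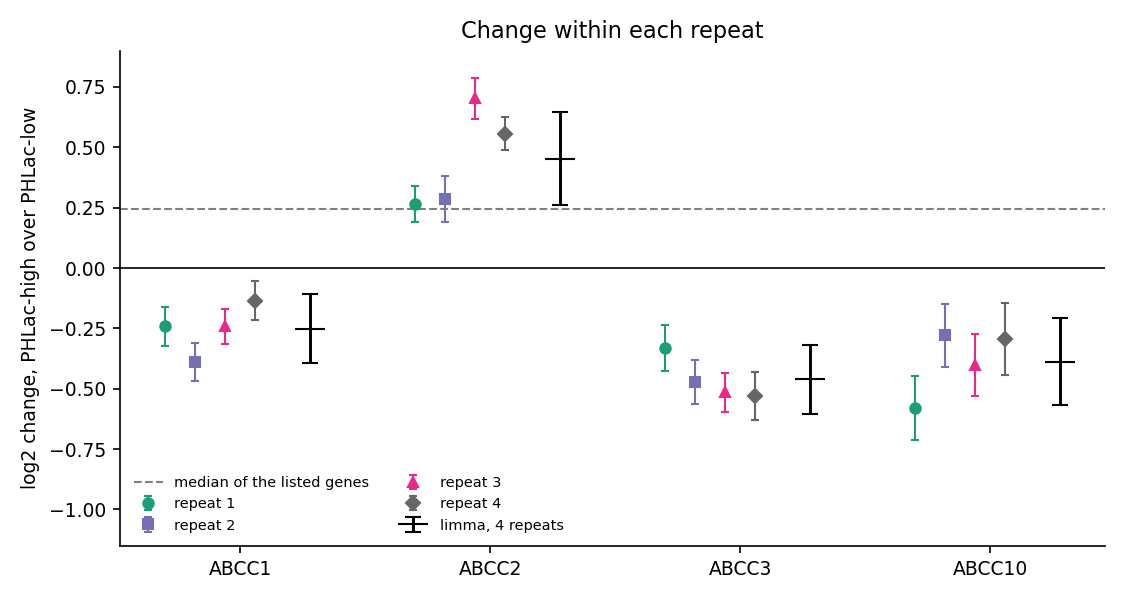
Log2 change of PHLac-high over PHLac-low for each ABCC gene within each repeat, with 95% intervals that cover counting error only, and beside them the limma mean of 4 repeats with its 95% confidence interval. All ABCC2 points lie above 0, from 0.26 to 0.70, and all points of ABCC1, ABCC3 and ABCC10 lie below 0, while the dashed line marks the median of the listed genes at 0.25.

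Of the 4 genes, 1 was higher in every repeat, as 56.2% of listed genes were, and 3 were lower in every repeat, as 39.8% were. The authors' deposited table gives log2 fold changes of -0.25 for ABCC1, 0.45 for ABCC2, -0.46 for ABCC3 and -0.39 for ABCC10. The adjusted p-values in the authors' deposited table are 0.0089, 1.55e-05, 2.8e-07 and 0.000738. By absolute log2 change the 4 genes were not extreme in the table: 55.9% of listed genes had a smaller change than ABCC3, 54.7% a smaller one than ABCC2, 45.1% than ABCC10 and 13.0% than ABCC1.

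The ratio of 2 genes within a library does not depend on the size factor. ABCC2 had 0.98, 0.55, 0.46 and 1.02 reads per ABCC1 read in repeats 1 to 4 of PHLac-low. In PHLac-high it had 1.39, 0.87, 0.89 and 1.64. The log2 ratio was higher in PHLac-high by 0.51, 0.67, 0.95 and 0.69 (mean 0.70 ± 0.18, SD, n = 4). Against ABCC3, the reads of ABCC2 went from 0.96 ± 0.41 to 1.79 ± 0.74 per ABCC3 read (SD, n = 4), higher in 4 of 4 repeats. The lower genes also differed among themselves, with 0.80 ± 0.09 ABCC3 reads per ABCC1 read in PHLac-low and 0.69 ± 0.07 in PHLac-high, lower in 4 of 4 repeats. The ratio of ABCC10 to ABCC1 was lower in 3 repeats and higher in 1. The members were chosen with their directions known, so these ratios are a description without a test.

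Levels were compared between genes as normalised counts per kilobase of transcript. In PHLac-low the order was ABCC1 (464 ± 36), ABCC3 (427 ± 45), ABCC2 (393 ± 144) and ABCC10 (215 ± 22 per kilobase, SD, n = 4). ABCC1 was above ABCC3 in 3 of 4 libraries and ABCC3 above ABCC2 in 2 of 4, so those 3 genes did not differ beyond their spread. ABCC10 was the lowest in every library. In PHLac-high the order was ABCC2 (536 ± 203), ABCC1 (389 ± 32), ABCC3 (309 ± 18) and ABCC10 (164 ± 20 per kilobase). ABCC2 exceeded ABCC1 in 3 of 4 libraries, with a mean difference of 147 ± 182 per kilobase (SD), and the other neighbours differed in 4 of 4. Of the summed reads per kilobase of the 4 genes, ABCC2 took 31.7%, 21.1%, 17.3% and 33.3% in repeats 1 to 4 of PHLac-low. It took 41.4%, 30.0%, 30.7% and 47.6% in PHLac-high. That share was 11.6 ± 2.7 percentage points higher in PHLac-high (SD, n = 4), while the shares of the other 3 genes were lower in 4 of 4 repeats. The shares have a fixed total and the directions were known, so the larger ABCC2 share restates the changes above and adds no evidence. The summed level of the 4 genes was 1499 ± 122 normalised counts per kilobase for PHLac-low and 1399 ± 209 for PHLac-high, lower in 3 repeats and higher in repeat 4.

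**Figure D3:**
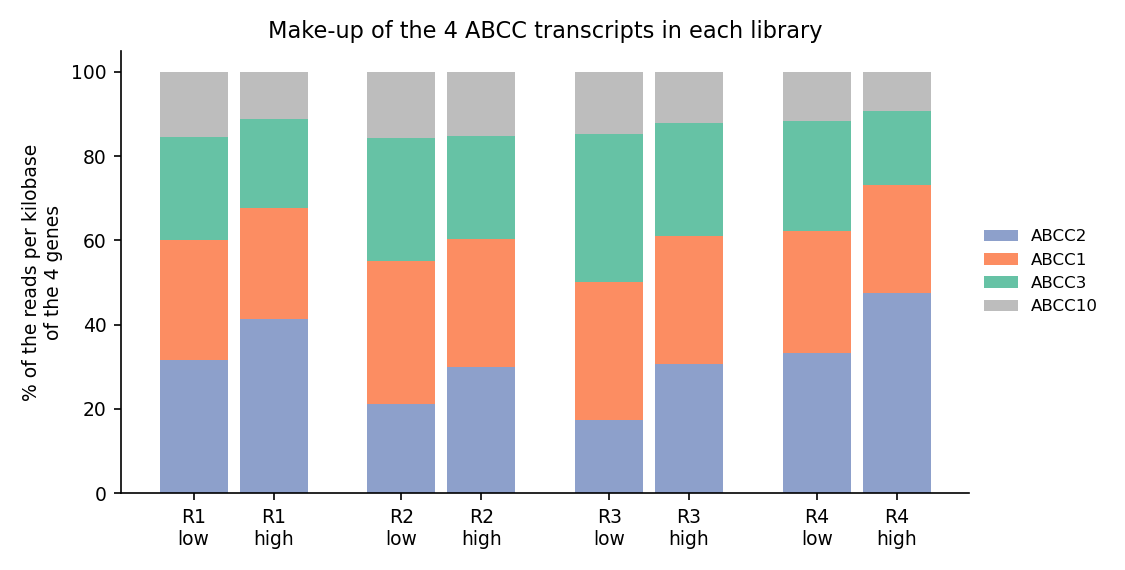
Share of ABCC2, ABCC1, ABCC3 and ABCC10 in their summed reads per kilobase of transcript (vertical axis, %) in each library; R1 to R4 are the repeats, low and high the PHLac-low and PHLac-high fractions. The ABCC2 share at the bottom of each bar is larger in the PHLac-high library of each repeat, and it is above 40% only in the PHLac-high libraries of repeats 1 and 4.

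Likeness of pattern was measured as the root mean square difference between log2 profiles over the 8 libraries, each centred on its own mean, among 3304 other listed genes with a mean of at least 100 normalised counts. Nearest to ABCC2 were S100A10 (0.13), DOCK11 (0.13) and HN1 (0.14), against a median of 0.58 over all genes compared. S100A10 had 9647, 5859, 5011 and 9726 normalised counts in repeats 1 to 4 of PHLac-low and, in the same order, 11874, 8486, 6529 and 15174 in PHLac-high, so it shared the high level of repeats 1 and 4. Nearest to ABCC3 were SIPA1L1 (0.03), GUSBP11 (0.08) and TUBGCP6 (0.08). Nearest to ABCC1 were NEURL4 (0.06), SBNO2 (0.07) and MGRN1 (0.07), and nearest to ABCC10 were ZNF691 (0.06), ARNT (0.06) and WASH2P (0.07). GUSBP11 and WASH2P belong to families of near-identical copies, so their counts are uncertain. ABCC1 lay 0.17 from ABCC3 and 0.18 from ABCC10, and ABCC2 lay between 0.57 and 0.71 from the other 3 genes.

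Beyond the ABCC genes, 9 other genes of the ABC superfamily were described. Of the 13 genes together, 4 rose and 9 fell in limma, beside 58.7% and 41.2% of all listed genes. Their median log2 change was -0.31 beside 0.25 for all listed genes. Upper-quartile scaling gave the same 4 to 9 division of directions. The 13 include the 4 ABCC genes, which were chosen with their directions known. ABCG2, the breast cancer resistance protein and another drug exporter, had 31.7, 55.4, 43.2 and 86.3 normalised counts in repeats 1 to 4 of PHLac-low. In PHLac-high it had 115, 202, 147 and 216. The fractions did not overlap, and the log2 change was 1.68 ± 0.16 (SE, limma adjusted p = 0.00012), which also passed without the block (limma adjusted p = 0.0098). It was the 1 gene analysed of 9 on a list of other ABC drug exporters and floppases. Of 12 ABCA lipid transporters 5 were analysed and 5 fell, as did 41.2% of listed genes, from -0.27 ± 0.08 in ABCA3 to -0.79 ± 0.15 in ABCA5 (SE, log2). After GC and length correction 4 passed as lower. ABCA3 did not (-0.05, limma adjusted p = 0.584), and ABCA7 went from -0.53 to -0.19 and ABCA2 from -0.51 to -0.23. Of 10 ABC transporters of organelle membranes 1 was analysed, ABCD4, which fell by 0.31 on the log2 scale. ABCE1 and ABCF2, which act on ribosomes and are not transporters, were 2 of 4 such genes analysed and rose by 0.30 and 0.31 on the log2 scale. With upper-quartile scaling neither passed (limma adjusted p = 0.325 and 0.339), and ABCE1 did not pass after GC and length correction either (0.06, limma adjusted p = 0.432).

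**Figure D4:**
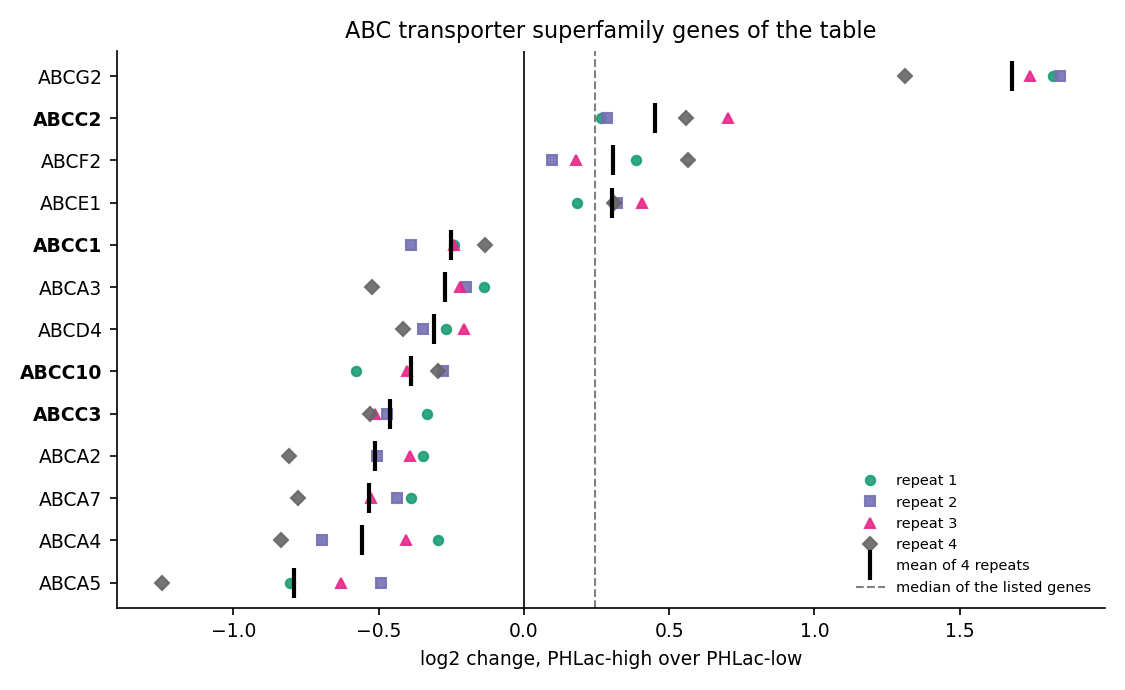
Log2 change of PHLac-high over PHLac-low (horizontal axis) for 13 ABC superfamily genes of the table, with a symbol for each repeat, a black bar for the mean of 4 repeats, and the 4 ABCC genes in bold. ABCG2 stands far to the right at 1.68, followed by ABCC2, ABCF2 and ABCE1, and the other 9 genes lie below 0 in every repeat.

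Genes that make or handle the substrates of ABCC pumps were counted on lists chosen for their known roles. The shares to read these counts against are those of all listed genes. In the main test 58.7% rose and 41.2% fell. With upper-quartile scaling 23.2% and 41.2% passed as higher and lower, and after GC and length correction 32.1% and 29.5%. The median log2 change of all listed genes was 0.25, 0.02 and 0.04 in these settings, so each shifts the whole table. Of 18 genes of glutathione synthesis, recycling and breakdown 9 were analysed, of which 6 rose and 3 fell (median log2 change 0.27), a division near that of all listed genes. GCLC, the catalytic subunit of the rate-limiting enzyme of glutathione synthesis, rose from 1768 ± 302 to 3334 ± 767 normalised counts (SD, n = 4). On the log2 scale that is 0.91 ± 0.08 (SE), with a limma adjusted p of 8.09e-05. SLC3A2, a subunit of the cystine importer, rose by 0.65 ± 0.09 on the log2 scale. SLC7A11, the other subunit, rose by 0.27 ± 0.12 but was lower in repeat 4 (-0.18). It did not pass with upper-quartile scaling (0.05, limma adjusted p = 0.746) or after GC and length correction (0.03, limma adjusted p = 0.788). OPLAH fell by 0.64 ± 0.08 on the log2 scale, and GGT5, with 31.8 ± 18.9 normalised counts in PHLac-low, fell by 1.18 ± 0.34. With upper-quartile scaling 3 of the 9 passed as higher and 3 as lower, and GGCT turned to -0.0075 (-0.14 after GC and length correction). Of 22 glutathione transferases 3 were analysed: GSTM1 (-0.29) and GSTM2 (-1.14) fell and GSTO1 (0.29, but -0.03 after GC and length correction) rose. GSTM1 and GSTM2 belong to a family of close copies, so the division of their reads is uncertain. None of 32 glucuronidation and sulfation genes was analysed here.

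Of 34 genes of the NRF2 pathway 19 were analysed, and 18 rose and 1 fell, beside 58.7% and 41.2% of all listed genes, with a median log2 change of 0.33 beside 0.25 for all listed genes. The list mixes targets with regulators, and the rises include BACH1 (0.67) and CUL3 (0.24), which oppose NRF2. GCLC and SLC7A11 are also on the glutathione list. The count is therefore not a measure of NRF2 activity. NFE2L2, which encodes NRF2, rose by 0.72 ± 0.08 (SE, log2, limma adjusted p = 0.000167). The largest rises were in HMOX1 (1.36 ± 0.16), GCLC, SRXN1 (0.84 ± 0.07) and AKR1C3 (0.79 ± 0.13), and the gene that fell was MAFK (-0.31 ± 0.09). The scaling bears on this count: with upper-quartile scaling 17 were higher and 2 lower in direction, FTH1 (-0.0055) joining MAFK, and 8 passed as higher and 1 as lower (23.2% and 41.2% of all listed genes). After GC and length correction 9 passed as higher and 0 as lower (32.1% and 29.5% of all), MAFK was at -0.03 (limma adjusted p = 0.737), and TXN (-0.03), ME1 (-0.03) and FTH1 (-0.03) had turned.

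Of 26 nuclear receptors and other factors known to regulate ABCC2 or ABCC3, 6 were analysed, of which 3 rose and 3 fell. VDR (1.03 ± 0.16), CEBPB (0.78 ± 0.17) and AHR (0.73 ± 0.10) rose, and NR5A2 (-0.73 ± 0.06), SP1 (-0.36 ± 0.06) and ARNT (-0.34 ± 0.06) fell (SE, log2). Of 13 genes whose products hold apical pumps in the membrane or carry them there, 3 were analysed and 3 rose, as did 58.7% of all listed genes. They were STX3 (0.73 ± 0.10), the membrane-cytoskeleton linker EZR (0.73 ± 0.05) and the PDZ adaptor SLC9A3R1 (0.37 ± 0.08), which did not pass with upper-quartile scaling (limma adjusted p = 0.0865).

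Other genes of drug handling gave smaller counts. Of 25 carriers for organic anion and cation uptake 2 were analysed: SLCO4A1 fell by 0.31 and SLCO1B3 rose by 0.24 on the log2 scale. Of 27 genes of nucleoside and folate drug handling 4 were analysed, of which UPP1 (0.33), NT5C3A (0.32) and UMPS (0.24) rose and the monoamine and adenosine transporter SLC29A4 (-0.33) fell. With upper-quartile scaling none of those 3 rises and not that of SLCO1B3 passed. After GC and length correction neither fall passed, with SLCO4A1 at -0.07 (limma adjusted p = 0.371) and SLC29A4 at -0.10 (limma adjusted p = 0.209), and of the 4 rises only that of UPP1 did (0.25, limma adjusted p = 0.0184). Of 30 cytochrome P450 and other phase I genes 7 were analysed, 5 higher and 2 lower, beside 58.7% and 41.2% of all listed genes. With upper-quartile scaling 3 passed as higher and 2 as lower. CYP1B1 rose by 1.16 ± 0.17, CYP1A1 by 0.80 ± 0.18, ALDH1A1 by 0.58 ± 0.07 and ALDH3A1 by 0.49 ± 0.15 (SE, log2). In repeat 4 CYP1A1 rose by only 0.03, against 0.79 to 1.42 in the other repeats, and ALDH3A1 was higher in 3 of 4 repeats. ALDH3A1 and ALDH1A3 did not pass with upper-quartile scaling (limma adjusted p = 0.149 and 0.0858).

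Of 15 markers of blood, endothelial, fibroblast and islet cells 3 were analysed and the others were not analysed here. Their summed level ranged from 1307 to 2158 normalised counts in PHLac-low and from 1296 to 3471 in PHLac-high, most of it from CD68, which encodes a lysosomal protein. The leukocyte gene PTPRC fell from 262 ± 107 to 103 ± 43 normalised counts (SD, n = 4), COL1A1 had 137 ± 57 and 85 ± 29, and CD68 had 1428 ± 413 and 2189 ± 942. None of these 3 was at 0, and their part in the ABCC changes was not tested.

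**Figure D5:**
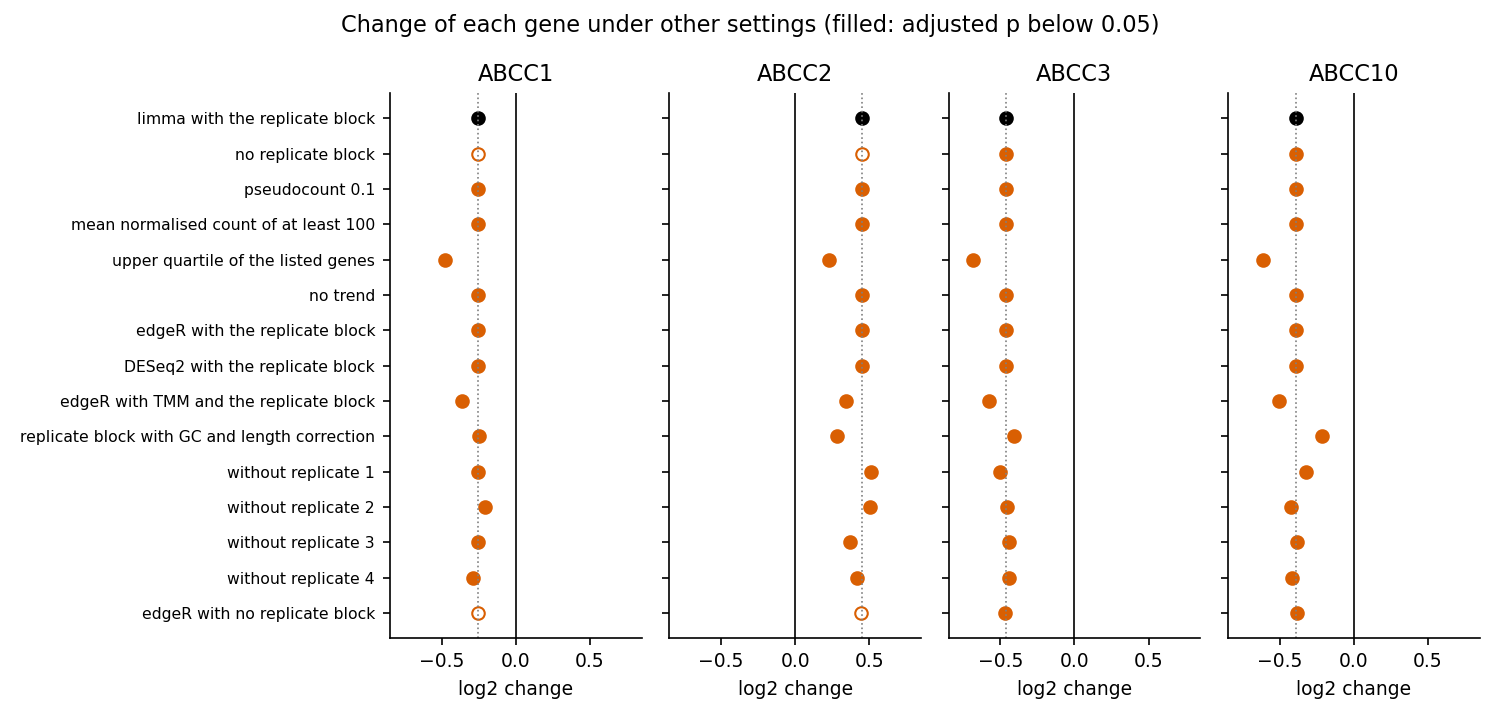
Log2 change of each ABCC gene (horizontal axes) under the main test (black, limma with the replicate block) and 14 other settings (orange), with filled points for an adjusted p below 0.05. No point crosses 0, and the only open points are those of ABCC1 and ABCC2 in the fits without the replicate block. Leaving out a repeat, or the block in limma, could not move a point across 0.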

How the data were processed

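Polyadenylated RNA of 8 libraries was sequenced paired end after dUTP second-strand marking, per the labels' protocols. STAR, SAMtools, Subread, DESeq2 and hg38 are named in the submitters' processing notes, with versions, settings, annotation and filters not given in the sources used here. The authors deposited 1 table with a read signal per library, a log2 fold change and an adjusted p-value. Dividing each of the 8 columns by its smallest step gave whole reads for 100% of values (tolerance 0.01 read), so the deposited signal is a read count divided by a size factor (0.755 to 2.09).

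Limma 3.58.1 (R 4.3.3, mean-variance trend) was fitted to all 3666 genes on log2(normalised count + 1), a scale that understates changes of low genes. The series text states that the samples are paired; after subtraction of each fraction's mean, the members of a pair correlated across genes at 0.53 to 0.76. EdgeR 4.0.16 and DESeq2 1.42.0 were run on the recovered reads as alternatives. All 4 genes exceeded the mean of 100 used in 1 alternative. GENCODE 29 gave transcript length and GC content for 98.8% of genes. Lowess curves (span 0.3) were subtracted for the correction, which also re-centres each library on the listed genes.

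The members and gene lists were chosen with earlier results of these data known. Genes of the lists were named by the size of their change (at most 4 per list, or all where 4 or fewer were analysed) and likeness by the 3 nearest genes; DLK2, GGCT, FTH1, TXN, ME1, MAFK, SLC7A11, ALDH1A3, NFE2L2, ABCA3 and other genes beyond 4 in a list were named after their values were seen. Counting intervals (95%, Clopper-Pearson) cover counting error only. Of the ABC superfamily, 1 gene is not reported here.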

Additional observations from a re-analysis of the deposited data

Results flagged for a closer look

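In 14 groups of 4 values (the 4 genes in each fraction, their changes within repeats, and the ratio of ABCC2 to ABCC1 reads in each fraction), the gap of the farthest value to its neighbour was compared with the group's range, which by chance picks out 0.7 groups of 14. It picked out 1, ABCC10 in PHLac-high, where the library of repeat 2 (987 normalised counts) stood above the others (772 to 797) by 0.882 of the range. In PHLac-low that repeat also had the highest ABCC10 value (1198).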

How the results depend on the processing

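The 4 genes kept their direction under all 14 alternatives, and 52 of 56 values passed the threshold. The 4 that did not are those without the replicate block for ABCC1 (-0.25; limma adjusted p = 0.0796, edgeR adjusted p = 0.0804) and ABCC2 (0.45; limma adjusted p = 0.205, edgeR adjusted p = 0.208). Each gene moved the same way in every repeat, so leaving out a repeat could not reverse a direction. Leaving out the block does not alter the limma estimate, and most other settings reuse the same scaled counts. The kept directions are therefore weak evidence. Without the block the 3666 listed genes gave 1135 calls in limma and 1194 in edgeR, against 3663 with it. Upper-quartile scaling gave 2360 calls (850 higher and 1510 lower, against 2153 and 1510), and edgeR with TMM factors 1508 higher and 1510 lower. GC and length correction with the replicate block gave 2260 (1178 higher and 1082 lower). Over the fits that each left out a replicate, the count of listed genes ranged from 3468 to 3627, ABCC1 from -0.29 to -0.21, ABCC2 from 0.37 to 0.52, ABCC3 from -0.50 to -0.44, ABCC10 from -0.42 to -0.32, and the log2 ratio of ABCC2 to ABCC1 from 0.62 to 0.77. Adjusted p over all alternatives ranged from 0.000145 to 0.0804 for ABCC1, 1.01e-05 to 0.208 for ABCC2, 1.12e-08 to 0.0188 for ABCC3 and 0.000127 to 0.0489 for ABCC10. The edgeR fit without the block was chosen after seeing the data. The cause of these differences was not tested. Every gene was listed for a difference in these libraries, so no count of false calls can be had, and genes outside the table were not analysed here.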
